A study of Homo sapiens with 8 samples.

Results

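The fibrillar collagen genes examined here were COL1A1, COL1A2, COL2A1, COL3A1, COL5A1, COL5A2, COL5A3, COL11A1 and COL27A1. These 9 genes were taken by name from the 58217 genes with an annotated transcript, and all 9 were among the 18201 genes tested. They were followed in oligodendrocyte progenitor cells (OPCs) of the established human embryonic stem cell line H9, 2 days after plating on 1 of the substrates Matrigel, VN and VNP2. Matrigel, the control, is a basement membrane extract made from a mouse tumour, VN is recombinant vitronectin, and VNP2 is a designed vitronectin-derived peptide with the integrin-binding RGD motif, fused to a mussel adhesive protein that fixes it to the plate. In all groups the cells had been patterned with retinoic acid, the inhibitors LDN193189 and SB431542 and the Smoothened agonist SAG. They were expanded over passages in OPC medium and received no SOX10 virus. The paper states plating in OPC medium at the same density for its differentiation cultures, and does not restate it for the sequenced cells. There were 2 Matrigel, 3 VN and 3 VNP2 libraries of polyadenylated RNA, holding between 37997896 and 39429453 estimated counts each. The Matrigel libraries carry the replicate numbers 2 and 3, a Matrigel replicate 1 was not analysed here, and every comparison with Matrigel rests on these 2. All came from 1 cell line. The study states in general that experiments were repeated, but the labels do not say whether the libraries of a substrate were separate cultures, so the p-values measure the spread between these libraries, which may be technical.

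Fibrillar collagens are the rod-like proteins of the banded fibrils of connective tissue. Their chains are made as procollagens, are hydroxylated and wound into triple helices in the endoplasmic reticulum, and assemble into fibrils outside the cell once their propeptides are removed. Types I, II and III make up the bulk of fibrils, whereas types V and XI are minor partners that start fibrils and limit their width. In the nervous system fibrillar collagens are best known from the meninges, vessels and peripheral nerve sheaths, and COL2A1 is also transcribed in the embryonic notochord, floor plate and neuroepithelium.

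Exon 2 of COL2A1 is shown because its use separates the forms of type II procollagen. It encodes a cysteine-rich domain of the amino propeptide, which is kept in the form of embryonic and progenitor tissues (type IIA) and left out in that of mature cartilage (type IIB). The exon is coding, lies on the minus strand of GRCh38 at chr12:47999919-48000125, and its 207 bases are a whole number of codons, so that skipping keeps the reading frame. The GENCODE v29 transcripts below are COL2A1-202, with 15 bases of exons 1 and 3 in lower case on either side of exon 2 in capitals, and COL2A1-201, in which exon 1 is joined directly to exon 3.
COL2A1-202: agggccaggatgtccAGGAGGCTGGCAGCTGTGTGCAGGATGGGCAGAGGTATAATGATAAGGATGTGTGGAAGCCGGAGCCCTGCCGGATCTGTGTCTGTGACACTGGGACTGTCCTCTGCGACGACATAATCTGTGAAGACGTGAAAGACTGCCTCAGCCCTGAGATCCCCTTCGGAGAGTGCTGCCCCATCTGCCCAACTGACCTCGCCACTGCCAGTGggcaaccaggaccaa
COL2A1-201: agggccaggatgtccggcaaccaggaccaa

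Promoter bases are shown for COL5A3 and COL11A1, a pair of genes that were lower on both VN and VNP2 than on Matrigel. The RefSeq promoter table (GRCh38.p14) matched 4 of the 9 genes, COL5A1, COL5A3, COL11A1 and COL27A1. Of these, COL5A1 was also lower on both substrates and is not printed. The stretches are the last 150 bases before the RefSeq start, chr19:10010505-10010654 for COL5A3 and chr1:103108523-103108672 for COL11A1, both read on the minus strand. In GENCODE v29 COL11A1 reaches chr1:103108872, so its stretch lies inside the annotated gene, downstream of the outermost start. Capitals mark CCAAT, the box known to be bound by NF-Y, and GGGCGG, the GC box of the Sp family, on either strand.
COL5A3: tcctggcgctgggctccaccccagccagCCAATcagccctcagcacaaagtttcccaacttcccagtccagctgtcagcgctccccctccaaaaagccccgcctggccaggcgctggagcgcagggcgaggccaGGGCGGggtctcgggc
COL11A1: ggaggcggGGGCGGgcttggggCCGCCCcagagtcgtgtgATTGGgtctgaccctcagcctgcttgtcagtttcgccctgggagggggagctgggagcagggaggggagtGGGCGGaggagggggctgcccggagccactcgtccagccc

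Counted back from the start at base -1, the CCAAT box began at -122 in COL5A3 and, as ATTGG, at -110 in COL11A1. GC boxes began at -16 in COL5A3 and at -142, -128 (as CCGCCC) and -40 in COL11A1. In the full 250 bases searched, COL5A1 had CCGCCC at -230 and -214 outside its annotated exon and COL27A1 had GGGCGG at -170 and -84, and neither held CCAAT. No matches overlapped. CCAAT was in 32.01% and GGGCGG in 42.6% of all 35116 promoter windows of that length. TATAAA (10.7% of promoters) and ACAATG, a core of SOX sites (9.29%), were found in none of the 4. A match is a description of the letters and not of binding. Whether any match goes with a change between substrates was not tested, and COL5A1 fell on both without a CCAAT box.

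Per length, the fibrillar collagen genes spanned more than 2 orders of magnitude (TPM, an abundance adjusted for transcript length and library size). On Matrigel the order of mean TPM was COL2A1 (179), COL1A1 (160), COL5A2 (147), COL3A1 (100), COL1A2 (42.5), COL11A1 (39.5), COL5A1 (33.3), COL27A1 (4.51) and COL5A3 (1.60). COL2A1 was also first on VN (174 ± 4.93 TPM, SD, n = 3) and on VNP2 (189 ± 3.35). COL1A1 dropped from the second place on Matrigel and VN to the fourth on VNP2, where its TPM of 63.1 ± 1.95 lay below those of COL3A1 (127 ± 1.29) and COL5A2 (116 ± 1.12). These levels include retained-intron and other non-coding transcripts, and coding transcripts held 63.0% to 69.1% of COL11A1 and 84.3% to 87.9% of COL2A1. In coding transcripts alone, COL1A1 (155) stood before COL2A1 (154) and COL5A1 (32.4) before COL11A1 (25.4) on Matrigel, and COL3A1 and COL1A1 (both 113) were level on VN. The order on VNP2 was the same on both scales. Neighbours with overlapping libraries in all transcripts were COL1A1 and COL3A1 on VN (111 to 126 and 111 to 117 TPM) and COL5A1 and COL11A1 on VNP2 (18.8 to 20.3 and 18.5 to 20.7 TPM).

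**Figure D1:**
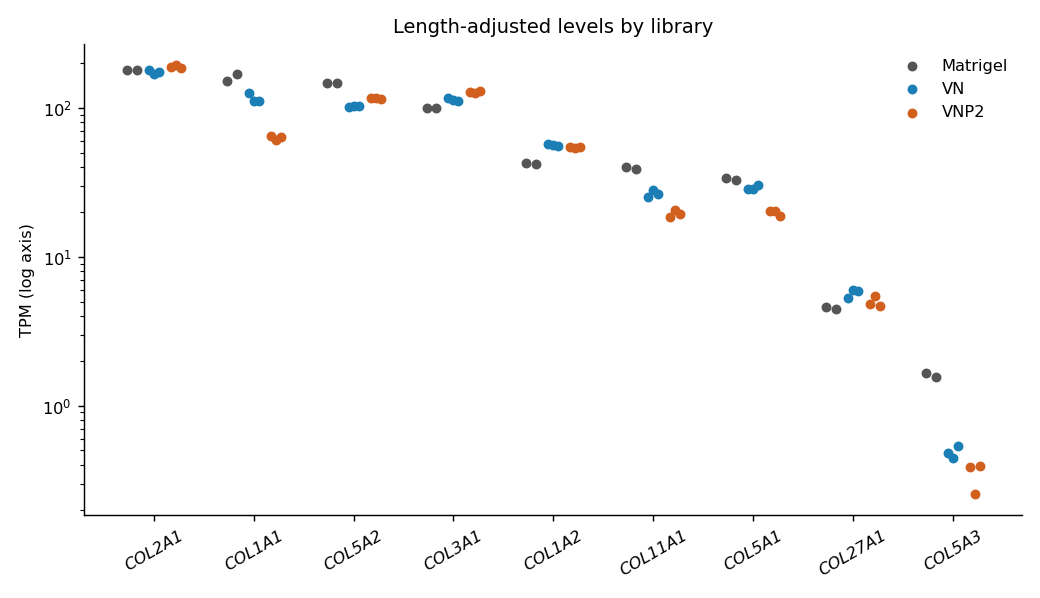
Length-adjusted level (TPM, log axis) of each of the 9 fibrillar collagen genes, in order of their Matrigel mean, with 1 point per library coloured by substrate. COL2A1 stays between 169 and 192 TPM in all libraries, whereas COL1A1 falls from 160 TPM on Matrigel to 63.1 on VNP2 and COL5A3 lies below 2 TPM throughout.

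Summed over the 9 genes, the libraries held 699 and 715 TPM on Matrigel, 616 to 640 on VN and 591 to 597 on VNP2. COL1A1 supplied 22.6% ± 1.33 of the summed TPM on Matrigel, 18.6% ± 0.912 on VN and 10.6% ± 0.355 on VNP2 (SD, n = 2, 3 and 3). In the same order COL3A1 supplied 14.2%, 18.2% and 21.4%, and COL2A1 25.3%, 27.8% and 31.75%. These shares are a description and were not tested.

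Of the 9 fibrillar collagen genes, 8 changed across the substrates at a Benjamini-Hochberg adjusted p under 0.05 in the edgeR quasi-likelihood fit, beside 19.3% of all genes tested. COL27A1 was the exception (adjusted p = 0.0747). On VN, 1 gene was higher than on Matrigel (COL1A2) and 5 were lower (COL1A1, COL5A1, COL5A2, COL5A3 and COL11A1), beside 5.66% of all genes called higher and 9.6% called lower. On VNP2, 2 were higher than on Matrigel (COL1A2 and COL3A1) and the same 5 were lower, beside 7.44% and 9.13% of all genes. These comparisons share the Matrigel libraries and are not independent of each other. Between VNP2 and VN, 2 genes were higher on VNP2 (COL3A1 and COL5A2) and 3 lower (COL1A1, COL5A1 and COL11A1), beside 3.09% and 2.01% of all genes.

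The median log2 fold change of the 9 genes was -0.28 for VN and -0.41 for VNP2 against Matrigel and -0.19 for VNP2 against VN, while the medians of all genes tested were 0.0044, 0.0024 and 0.0007. The libraries of VN and Matrigel did not overlap for 9 of the 9 genes (44.4% of all genes), those of VNP2 and Matrigel for 7 (48.1%), and those of VNP2 and VN for 7 (23.6%). VN replicate 1 stood apart, with a median chi-square per gene of 2.35 and 2.75 in its pairs with VN replicates 2 and 3, beside 0.781 for that pair itself and 0.455 from sampling noise alone. Without it, 8 of the 9 genes were called between VN and Matrigel, 7 between VNP2 and Matrigel and 6 between VNP2 and VN, the added ones being COL2A1 in both pairs with VN and COL27A1 between VN and Matrigel.

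**Figure D2:**
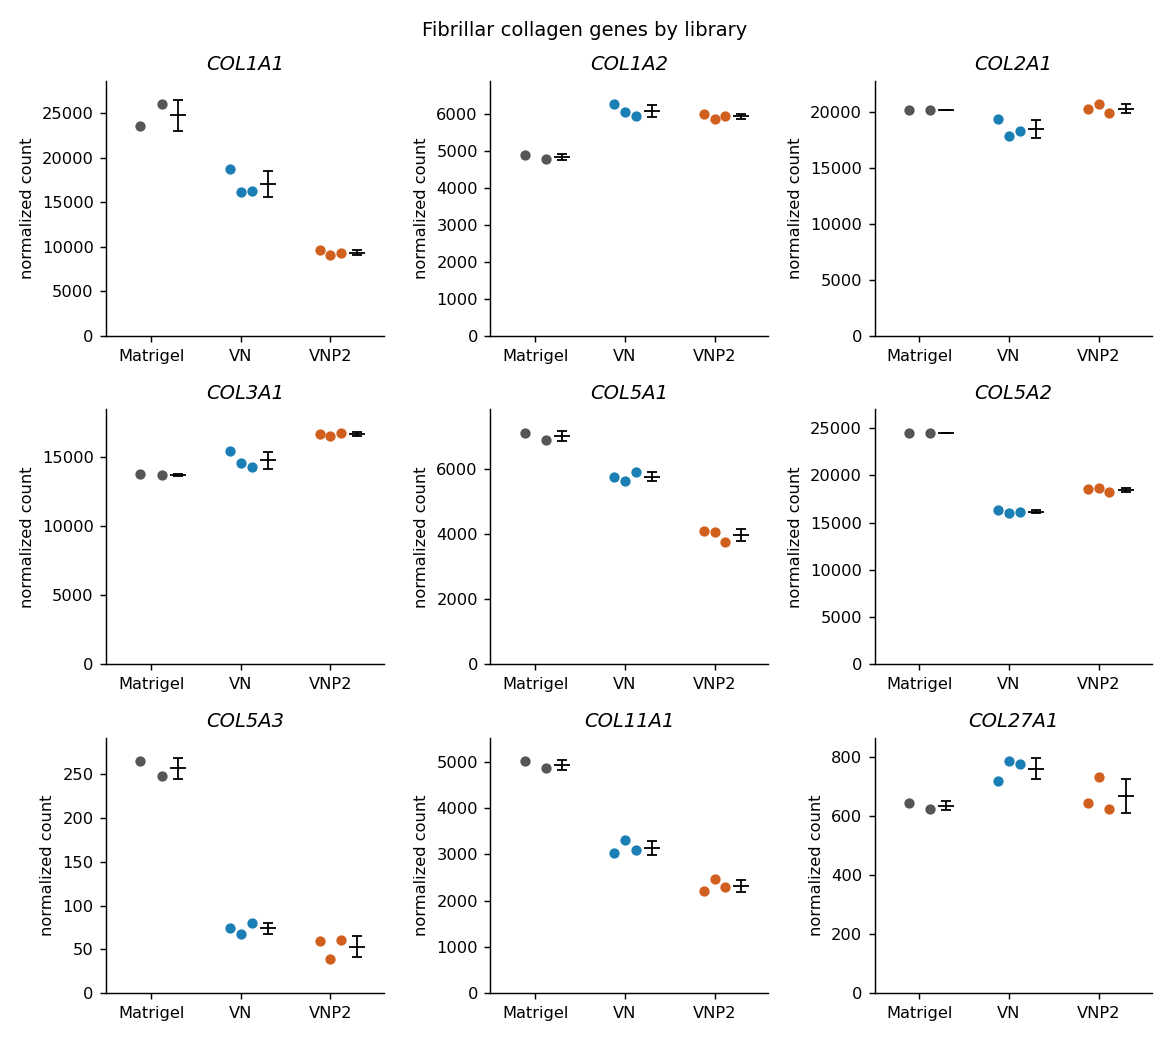
Normalized count of each fibrillar collagen gene (linear axes from 0), with 1 point per library and, at the right of each group, the mean with its SD (n = 2 Matrigel, 3 VN and 3 VNP2). COL1A1, COL5A1 and COL11A1 step down from Matrigel to VN and again to VNP2, COL5A2 is lowest on VN, and COL1A2 is higher on both vitronectin substrates.

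COL1A1 encodes the alpha-1 chain of type I collagen, the main collagen of bone, skin and tendon, and lies at chr17:50183289-50201632 (GRCh38) on the minus strand. Its normalized counts (counts after scaling for library size and transcript length) were 23524 and 25974 (Matrigel), 18758, 16179 and 16213 (VN) and 9634, 9038 and 9353 (VNP2). The groups did not overlap, and VN replicate 1 was the highest of its group. COL1A1 was at 0.689 of its Matrigel level on VN (log2 fold change -0.54 ± 0.066, SE, adjusted p = 0.000392) and at 0.377 on VNP2 (-1.41 ± 0.066, adjusted p = 3.0e-07). VNP2 was also lower than VN, at 0.548 of its level (-0.87 ± 0.060, adjusted p = 4.27e-05).

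COL1A2 encodes the alpha-2 chain of the same type I molecule, from another chromosome (chr7:94394561-94431232, plus strand), and it went the other way. Its normalized counts were 4893 and 4782 (Matrigel), 6253, 6032 and 5936 (VN) and 5980, 5861 and 5943 (VNP2). Both vitronectin groups lay above Matrigel, by 1.26-fold on VN (log2 fold change 0.33 ± 0.037, adjusted p = 0.000226) and 1.23-fold on VNP2 (0.29 ± 0.037, adjusted p = 0.000345), and they overlapped each other. The difference between VNP2 and VN did not pass the test (adjusted p = 0.606), with a 95% interval of -0.11 to 0.04 on the log2 scale.

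The ratio of COL1A1 to COL1A2 TPM bears on the make-up of type I collagen, which is chiefly built from a pair of alpha-1 chains and a single alpha-2 chain. This ratio was 3.53 and 3.99 (Matrigel), 2.20, 1.97 and 2.01 (VN) and 1.18, 1.13 and 1.16 (VNP2). The groups did not overlap, and transcripts of both chains were nearly equal on VNP2. On the log2 scale, 99.1% of the variation of the ratio lay between the substrates. Among the 560 possible assignments of the libraries to the groups, 2 reached this share (one-sided exact permutation test, p = 0.00357, the smallest this design allows, and 0.00476 after adjustment over the 4 ratios and shares tested). The ratio is built from genes whose own changes are given above, so its test is not separate support for them. It concerns transcripts, and protein was not measured in these files.

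COL3A1 encodes the chain of type III collagen, a homotrimer that runs with type I in elastic tissues and vessel walls. The normalized counts of COL3A1 were 13788 and 13690 (Matrigel), 15453, 14589 and 14286 (VN) and 16699, 16518 and 16788 (VNP2). The groups were stacked without overlap from Matrigel to VNP2. VNP2 exceeded Matrigel by 1.21-fold (log2 fold change 0.28 ± 0.038, adjusted p = 0.000545) and VN by 1.13-fold (0.17 ± 0.033, adjusted p = 0.0136). The latter call was lost without VN replicate 2 or 3 or VNP2 replicate 1 or 3, at adjusted p = 0.0548, 0.0606, 0.0573 and 0.0632. VN against Matrigel did not pass (0.10, adjusted p = 0.0884, 95% interval 0.02 to 0.19 before adjustment). The TPM ratio of COL3A1 to COL1A1 was 0.663 and 0.596 (Matrigel), 0.931, 1.02 and 0.996 (VN) and 1.96, 2.07 and 2.03 (VNP2). COL1A1 had the higher TPM on Matrigel, the pair were close on VN, and COL3A1 had the higher TPM on VNP2. Of the variation, 99.35% lay between substrates (one-sided exact permutation test, p = 0.00357, adjusted p = 0.00476). Both genes were already stacked without overlap in opposite orders, so this test adds no separate support.

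**Figure D3:**
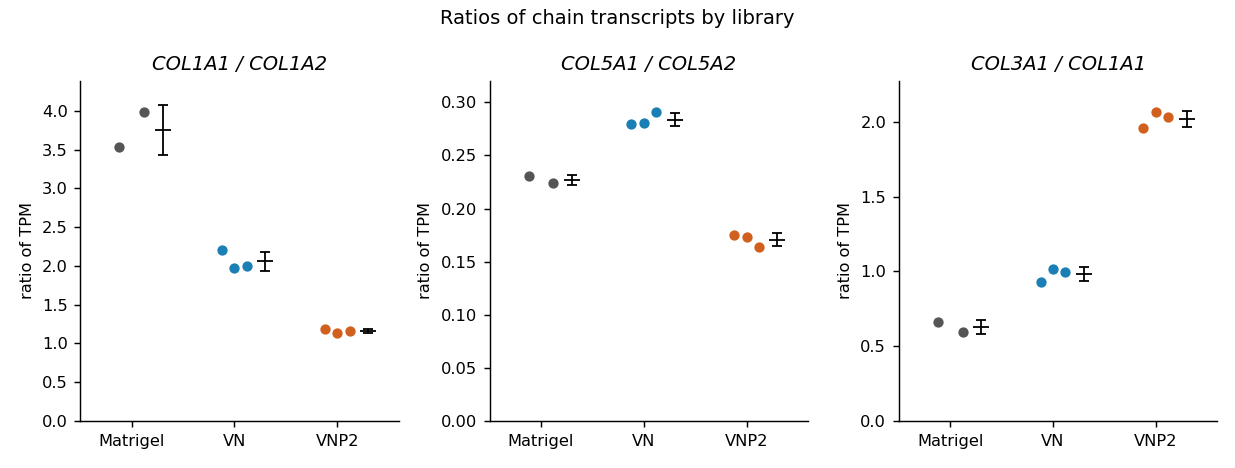
Ratios of TPM between pairs of chains by library (points), with the mean and SD of each group at its right and axes from 0. COL1A1 to COL1A2 falls from a mean of 3.76 on Matrigel to 2.06 on VN and 1.16 on VNP2, COL5A1 to COL5A2 peaks on VN and is lowest on VNP2, whereas COL3A1 to COL1A1 climbs from 0.629 to 0.982 and 2.02.

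COL5A1 and COL5A2 encode the alpha-1 and alpha-2 chains of type V collagen, which starts type I fibrils. The COL5A1 counts were 7104 and 6883 (Matrigel), 5740, 5635 and 5892 (VN) and 4084, 4063 and 3758 (VNP2), again without overlap. COL5A1 was at 0.823 of its Matrigel level on VN (log2 fold change -0.28 ± 0.044, adjusted p = 0.002) and at 0.567 on VNP2 (-0.82 ± 0.044, adjusted p = 8.6e-07). VNP2 was at 0.689 of VN (-0.54 ± 0.040, adjusted p = 6.17e-05).

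COL5A2 was lowest on VN and not on VNP2. Libraries of COL5A2 held normalized counts of 24500 and 24443 (Matrigel), 16288, 15982 and 16088 (VN) and 18574, 18616 and 18199 (VNP2). VN was at 0.659 of Matrigel (log2 fold change -0.60 ± 0.029, adjusted p = 6.0e-07) and VNP2 at 0.754 (-0.41 ± 0.029, adjusted p = 5.89e-06), so that VNP2 exceeded VN by 1.15-fold (0.20 ± 0.026, adjusted p = 0.00176). The gene lies at chr2:189031896-189225312 on the minus strand, with 19149 bases between its end and that of COL3A1 (chr2:188974320-189012746, plus strand). These neighbours, transcribed toward each other, went in opposite directions on VNP2 against Matrigel.

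The TPM ratio of COL5A1 to COL5A2 was 0.230 and 0.224 (Matrigel), 0.280, 0.280 and 0.291 (VN) and 0.175, 0.173 and 0.164 (VNP2). Its order, highest on VN and lowest on VNP2, was shared by neither chain alone. The substrates held 99.0% of its variation (one-sided exact permutation test, p = 0.00357, adjusted p = 0.00476). This test too is not independent of the changes of the chains given above.

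COL5A3 encodes a further type V chain of more restricted expression, and it had the lowest level and the largest fold changes against Matrigel of the 9 genes. COL5A3 reached normalized counts of only 265 and 249 (Matrigel), 74.4, 67.0 and 80.2 (VN) and 59.8, 39.03 and 60.2 (VNP2). Every vitronectin library lay far below both Matrigel libraries. VN was at 0.288 of Matrigel (log2 fold change -1.80 ± 0.18, adjusted p = 8.54e-05) and VNP2 at 0.207 (-2.27 ± 0.18, adjusted p = 1.32e-05). VNP2 against VN did not pass the test (-0.47 ± 0.18, adjusted p = 0.18), and counts of this size carry a wide interval of -0.87 to -0.07 before adjustment.

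COL11A1 encodes the alpha-1 chain of type XI collagen, the partner of type II in cartilage fibrils. Normalized counts of COL11A1 were 5018 and 4864 (Matrigel), 3026, 3306 and 3087 (VN) and 2209, 2466 and 2300 (VNP2). The groups did not overlap. VN was at 0.635 of Matrigel (log2 fold change -0.65 ± 0.054, adjusted p = 2.6e-05), VNP2 at 0.470 (-1.09 ± 0.055, adjusted p = 5.17e-07), and VNP2 at 0.740 of VN (-0.43 ± 0.050, adjusted p = 0.00076).

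COL2A1, whose chain forms type II collagen and also enters type XI, changed little against Matrigel. In the libraries COL2A1 had normalized counts of 20219 and 20179 (Matrigel), 19395, 17841 and 18302 (VN) and 20269, 20712 and 19930 (VNP2). The VN libraries were the lowest, and Matrigel and VNP2 overlapped. VN against Matrigel (log2 fold change -0.13 ± 0.039, adjusted p = 0.054) and VNP2 against VN (0.13 ± 0.035, adjusted p = 0.0575) both missed the threshold in the fit of all libraries. Without VN replicate 1, the nearest of its group to the others, both passed (-0.16, adjusted p = 0.00458, and 0.17, adjusted p = 0.00477). VNP2 differed from Matrigel by 0.01 on the log2 scale (adjusted p = 0.927), with a 95% interval of -0.08 to 0.09.

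Nearly all COL2A1 transcripts kept exon 2. Among transcripts that join exons 1 and 3 with or without it, those with exon 2 held 98.7% and 98.8% of TPM (Matrigel), 98.7%, 99.2% and 99.5% (VN) and 99.2%, 99.4% and 98.7% (VNP2). Between 17318 and 20443 estimated counts per library went to the transcripts with exon 2 and between 72.3 and 235 to COL2A1-201, which lacks it. The substrates overlapped and held 24.5% of the variation (one-sided exact permutation test, p = 0.446, adjusted p = 0.446). That share of the variation was 12.02% without Matrigel replicate 2, 58.1% without VN replicate 1 and 42.3% without VNP2 replicate 3, and none of these passed (exact p = 0.829, 0.238 and 0.371). The shares are Salmon's split of reads between transcripts that also differ outside exon 2, COL2A1-202 being 5059 and COL2A1-201 4442 bases long, and the depth of COL2A1-201 limits how small a difference could be seen.

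COL27A1 encodes type XXVII collagen, a fibrillar chain of developing cartilage and other tissues. For COL27A1 the normalized counts were 644 and 622 (Matrigel), 719, 785 and 774 (VN) and 644, 731 and 623 (VNP2). The VN libraries were above Matrigel and VNP2 overlapped with both. No pair passed the test (adjusted p = 0.0547 for VN and 0.622 for VNP2 against Matrigel, and 0.179 for VNP2 against VN). The VN difference of 0.26 ± 0.081 on the log2 scale rested on the correction for transcript length, and without it was 0.0037 (adjusted p = 0.976), as the difference between VNP2 and VN went from -0.19 to -0.008. With the correction, leaving out 1 library gave values from 0.24 to 0.30, which passed without VN replicate 1 (adjusted p = 0.0308) or VNP2 replicate 2 (0.0361). Protein-coding transcripts held between 54.8% and 69.7% of COL27A1 TPM, and their level was 2.95 and 3.10 TPM on Matrigel, 3.01 to 3.36 on VN and 3.08 to 3.33 on VNP2, so that VN overlapped with both.

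The other fibrillar collagen genes, COL11A2 and COL24A1, were scarce. COL11A2, a further type XI chain, averaged 44.1, 68.5 and 48.1 normalized counts (Matrigel, VN, VNP2), and COL24A1, the type XXIV chain, had 165, 111 and 109. Neither passed the test in any pair, with adjusted p between 0.156 and 0.952 in the edgeR fit, and COL24A1 on VNP2 against Matrigel alone passed without adjustment. Without VNP2 replicate 3, its highest VNP2 library, COL24A1 was called lower there.

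**Figure D4:**
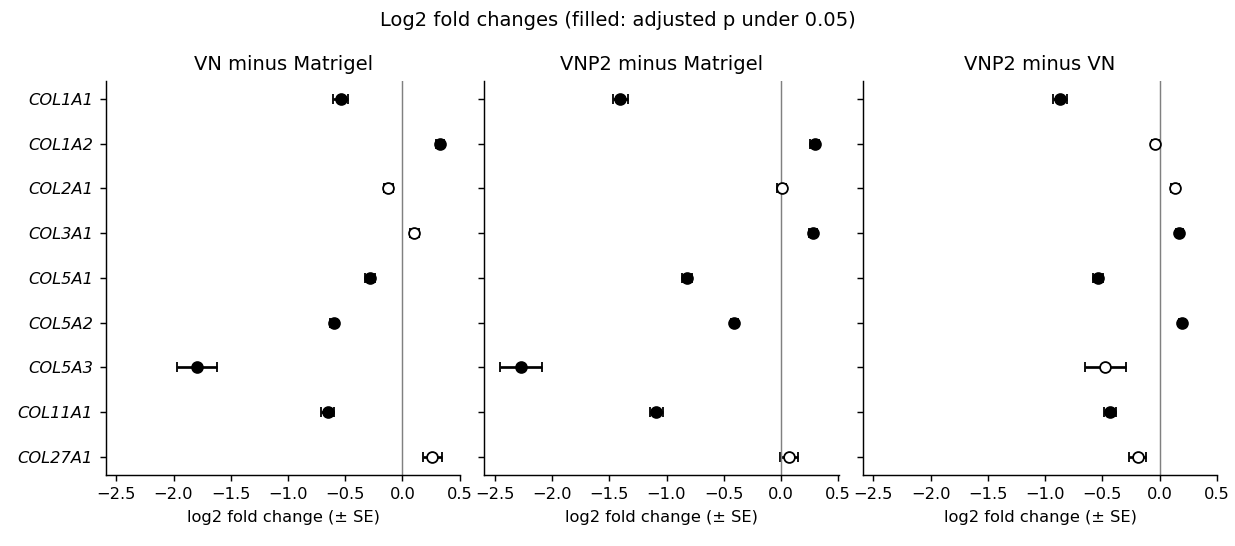
Log2 fold change with its SE for the 9 fibrillar collagen genes in each pair of substrates, filled where the adjusted p was under 0.05 and open otherwise. COL1A2 sits right of 0 while COL1A1 sits left of it against Matrigel, and COL5A2 and COL3A1 are the genes above VN on VNP2 that passed.

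Over the 8 libraries the log2 levels of COL1A1 and COL5A1 had a Pearson correlation of 0.981, those of COL1A1 and COL11A1 0.938, and those of COL1A1 and COL3A1 -0.931. COL1A2 and COL5A2 had -0.950. These values describe 8 points in 3 groups and follow largely from the group means. Among the 12996 genes whose mean normalized count reached 100, the levels most like those of COL1A1 were of IQGAP3 (0.992), EDIL3 (0.984) and MAVS (0.984), and those most like COL5A1 were of PDE3A (0.994), CEP55 (0.994) and RBM20 (0.990). COL5A2 was closest to CTGF (0.996), TAGLN2 (0.995) and SCRN1 (0.994), COL3A1 to EPAS1 (0.995), COL1A2 to ISL1 (0.980), COL11A1 to CNTN6 (0.995), COL5A3 to CRHBP (0.994), COL2A1 to MDP1 (0.989) and COL27A1 to SMARCA5-AS1 (0.983).

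Genes that modify and fold procollagen were called lower more often than higher on both vitronectin substrates. Of 20 such genes, 10 fell and 1 rose on VN (50% and 5%, median log2 fold change -0.21). On VNP2 11 fell and 1 rose (55% and 5%, median -0.22), and the medians of all genes were near 0. Of all genes, 9.6% fell and 5.66% rose on VN, and 9.13% fell and 7.44% rose on VNP2. The share that rose was thus below that of all genes. COLGALT2, a galactosyltransferase of collagen hydroxylysine, had mean normalized counts of 2704 on Matrigel, 1577 on VN and 1447 on VNP2 (log2 fold changes -0.78 ± 0.050 and -0.90 ± 0.050). PLOD3, a lysyl hydroxylase, had 2077, 1651 and 1697 (-0.33 and -0.29), both calls being lost without Matrigel replicate 3 (adjusted p = 0.0506 and 0.0717). P4HA2, an alpha subunit of prolyl 4-hydroxylase, had 491, 394 and 328 (-0.32 and -0.58), the VN call being lost without either Matrigel library or VN replicate 3 (adjusted p between 0.0578 and 0.148). P4HB, the beta subunit of the same enzyme, had 17067, 14766 and 14662 (-0.21 and -0.22, both called). SERPINH1, the collagen chaperone HSP47, was called on VN (-0.30) and had -0.18 on VNP2, which did not pass, and its VN call was lost without Matrigel replicate 2 (adjusted p = 0.0930). P3H2, a prolyl 3-hydroxylase, fell on VN (-0.93), a call lost without Matrigel replicate 3 (adjusted p = 0.114). TMEM38B, an endoplasmic reticulum cation channel needed for collagen hydroxylation, was the gene that rose (0.23 and 0.31), the VN call being lost without Matrigel replicate 3 (adjusted p = 0.0704). The counts of lower genes depended on single libraries, with 6 on VN without Matrigel replicate 3, and 5 on VNP2 without Matrigel replicate 2, Matrigel replicate 3 or VNP2 replicate 3. PLOD2, another lysyl hydroxylase, was lower on VNP2 than on Matrigel (-0.42). It alone of the list was also lower on VNP2 than on VN (-0.30), and that call was lost without VN replicate 2 or 3 or VNP2 replicate 1 or 3 (adjusted p between 0.0636 and 0.0813).

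Of 13 genes for propeptide removal and cross-linking, 3 fell and 1 rose on VN, and 3 fell and 3 rose on VNP2 (medians -0.15 and 0.09). The 1 that rose on VN is 7.69% of the list, near the 5.66% of all genes, while the other counts are 23.1% each, beside 9.6% of all genes lower on VN and 9.13% lower and 7.44% higher on VNP2. LOXL2, a lysyl oxidase that cross-links collagens, had mean normalized counts of 3991, 2082 and 1817 (log2 fold changes -0.94 ± 0.061 and -1.14 ± 0.061, adjusted p = 4.66e-06 and 8.24e-07). LOXL1, another lysyl oxidase, was lower by the same test on VN (-0.53) and VNP2 (-0.59). LOX itself, at 354, 355 and 376, did not pass. The procollagen peptidases went in different directions. ADAMTS3, an amino-propeptidase, had 660, 753 and 1054 and rose on VNP2 against both Matrigel (0.67) and VN (0.48). TLL1, a tolloid protease, had 148, 134 and 237 and rose on VNP2 against VN (0.83, adjusted p = 0.00489) and against Matrigel (0.68), the latter call being lost without Matrigel replicate 3 (adjusted p = 0.0891). TLL2, another tolloid protease, had 349, 527 and 663 (0.60 and 0.93 against Matrigel), and BMP1, the main carboxy-propeptidase, fell by 0.25 on VN and 0.19 on VNP2, calls lost without Matrigel replicate 2 (adjusted p = 0.151 and 0.352) and, on VNP2, without any of its own libraries (0.0579 to 0.102). Without VN replicate 1, 2 genes of the list rose on VN.

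**Figure D5:**
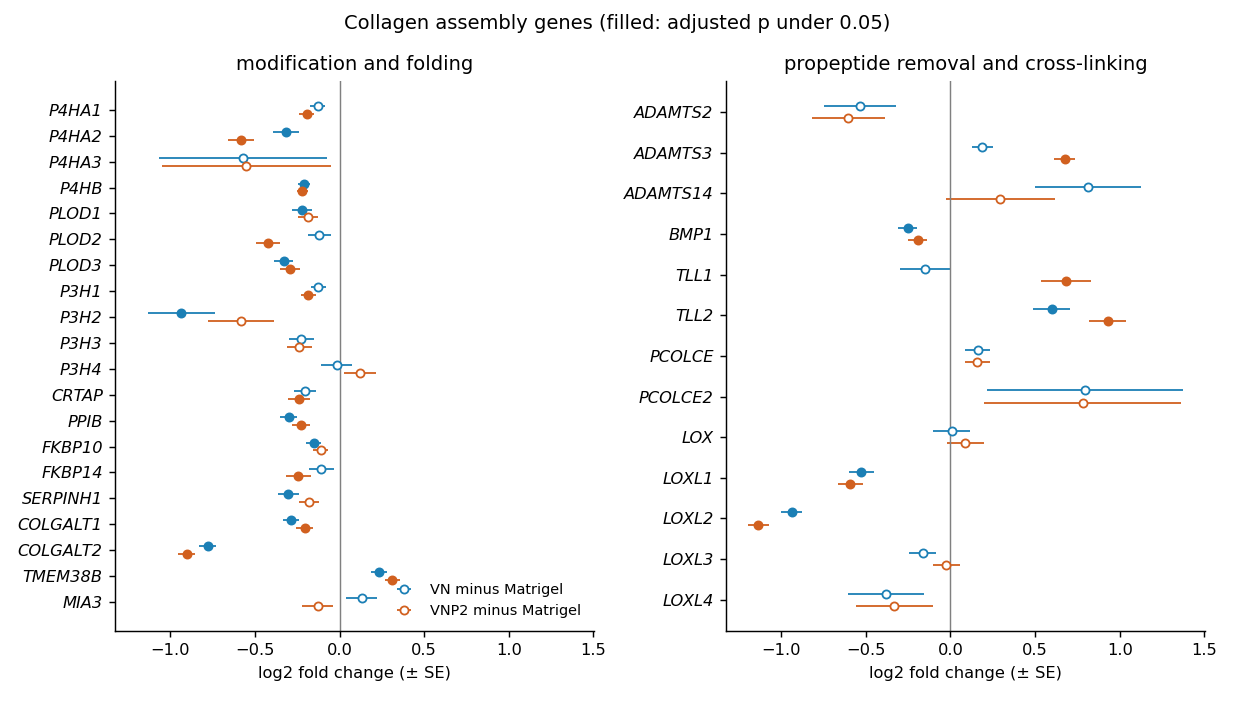
Log2 fold change against Matrigel, with its SE, of the 20 modification and folding genes (left) and the 13 propeptide removal and cross-linking genes (right) on VN and VNP2, filled where the adjusted p was under 0.05. Most filled points of the left panel lie left of 0, with TMEM38B to the right, and LOXL2 and LOXL1 stand opposite TLL2 in the right panel.

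Among 20 fibril-associated collagens and small leucine-rich proteoglycans, 14 were expressed highly enough to be tested. On VN 2 rose and 1 fell (14.3% and 7.14%), beside 5.66% and 9.6% of all genes, so the share that fell is below that of all genes. On VNP2 3 rose and 3 fell (21.4% each), beside 7.44% and 9.13% of all genes. DCN (decorin) and LUM (lumican), proteoglycans that bind fibril surfaces, had mean normalized counts of 2209, 3191 and 2801, and of 2880, 4299 and 3567. Both rose on both substrates, and on VNP2 neither call held without Matrigel replicate 3 (adjusted p = 0.0789 and 0.201), which left 1 gene of the list higher there. The LUM call was also lost without Matrigel replicate 2, VN replicate 3 or VNP2 replicate 2 or 3 (adjusted p between 0.0548 and 0.174). COL12A1, which coats type I fibrils, had 5573, 3116 and 2840 (log2 fold changes -0.84 and -0.97, both called). COL21A1 and COL22A1 fell on VNP2 against both Matrigel (-0.55 and -0.73) and VN (-0.74 and -0.76), and BGN (biglycan) rose against both (0.31 and 0.36). FMOD (fibromodulin), a scarce proteoglycan at 48.2, 33.2 and 72.3, had the largest difference of the list between VNP2 and VN (1.12 ± 0.20, adjusted p = 0.00849).

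Of 12 collagen receptors, 9 were tested. On VN 4 fell and 1 rose (44.4% and 11.1%), beside 9.6% and 5.66% of all genes. On VNP2 4 fell and 2 rose (44.4% and 22.2%), beside 9.13% and 7.44% of all genes. ITGB1, the beta subunit of the collagen-binding integrins, had 33808, 26636 and 26668 (log2 fold changes -0.34 and -0.34, both called). ADGRG1, an adhesion receptor that binds type III collagen, had 2787, 3676 and 4145 (0.40 and 0.57). DDR1, a collagen receptor kinase, was called lower on VN (-0.20), except without Matrigel replicate 3 (adjusted p = 0.0594), and on VNP2 (-0.12), where leaving out any library but VN replicate 1 or 2 ended the call (adjusted p between 0.0571 and 0.230). The authors' normalized counts of ITGA1 were 2137 and 2056 (Matrigel), 1204, 1301 and 1227 (VN) and 1730, 1610 and 1414 (VNP2). In these counts VNP2 lay between Matrigel and VN. Here ITGA1 was called lower on both (-0.82 and -0.76), but on transcripts that held only 0.166 of the authors' count. Both calls were lost without Matrigel replicate 2 (adjusted p = 0.0898 and 0.108). The count of lower receptors was 2 on VN without either Matrigel library, and on VNP2 it was 1 without Matrigel replicate 2 and 2 without Matrigel replicate 3 or VNP2 replicate 2 or 3, while without Matrigel replicate 3 only 1 was higher on VNP2.

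Of 15 transcription factors known to act on fibrillar collagen genes, 14 were tested. SOX9 and SOX5, activators of COL2A1 and COL11A2 in cartilage, rose on VN (0.45 and 0.40) and on VNP2 (0.37 and 0.35). SOX6 of the same list, named after its values were seen, was called in neither comparison. The authors' normalized counts of SOX6 were 1986 and 2036 (Matrigel), 1674, 1854 and 2061 (VN) and 1679, 1666 and 1577 (VNP2). The transcripts matched here held only 0.516 of that level. CREB3L1, an activator of COL1A1 in bone, had mean normalized counts of 296, 167 and 151 (-0.82 and -0.96), and RUNX2, the osteoblast factor, had 273, 137 and 137 (-0.99 and -0.99), the VN call being lost without Matrigel replicate 3 (adjusted p = 0.0509). SP1, SP3 and the 3 NF-Y genes, whose boxes are marked in the promoters above, had log2 fold changes between 0.01 and 0.15 against Matrigel, of which only that of NFYA on VNP2 (0.14) passed, and not without either Matrigel library or any VNP2 library (adjusted p between 0.0592 and 0.171). In all, 2 of the factors rose and 2 fell on VN (14.3% each) and 3 rose and 2 fell on VNP2 (21.4% and 14.3%). These shares lie above the 5.66% and 9.6% of all genes on VN and 7.44% and 9.13% on VNP2, but each rests on only 2 or 3 genes. Without VN replicate 1, 5 rose on each substrate, and without Matrigel replicate 3, 1 fell on VN.

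The cells' label was compared with marker genes, since bulk RNA cannot tell fewer cells of a type from less RNA per cell. OLIG1 and OLIG2, transcription factors of the oligodendrocyte lineage, had mean normalized counts between 1524 and 2106, whereas SOX10 had 20 estimated counts over all 8 libraries. Of the 6 OPC markers tested, 3 rose on VN and 6 on VNP2, beside 5.66% and 7.44% of all genes called higher. Several of these calls needed both Matrigel libraries. Without Matrigel replicate 3, OLIG1 and OLIG2 were not called on VN (log2 fold changes 0.31 and 0.25). The same held for OLIG2 and NKX2-2 on VNP2 (0.18 and 0.30). Without Matrigel replicate 2, PDGFRA and CSPG4 were not called on VNP2 (0.31 and 0.52), nor OLIG1 on VN (0.29). The 7 markers summed to 215 to 217 TPM on Matrigel, 282 to 296 on VN and 310 to 334 on VNP2. Without PTPRZ1, the largest part, the sums were 106.7 to 108.5, 136.1 to 138.3 and 137.7 to 145.5 TPM, so that VN and VNP2 overlapped. PTPRZ1 was matched at 0.787 of the level in the authors' table. Floor plate genes were present, with mean normalized counts of FOXA2 at 2042 to 2200, and SHH was called lower on VN (1262, log2 fold change -0.50) and VNP2 (1163, -0.62) than on Matrigel (1789), while the notochord genes TBXT and NOTO had 1 and 0 counts in all. Of the chondrocyte markers, COL10A1 had 0 and COMP 11 counts in all, and the 10 summed to 19.3 to 23.1 TPM in every group. Of the 6 tested, MATN3, a cartilage matrix gene, fell on VN and VNP2 (-0.96 and -0.98), and the VNP2 call of CNMD, chondromodulin (0.69), was lost without any library but VNP2 replicate 2 (adjusted p between 0.0538 and 0.191).

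Neural progenitor markers also moved. Of the 5 tested, 2 rose and 2 fell on VN (40% each) and 2 fell on VNP2 (40%). Of all genes, 5.66% rose and 9.6% fell on VN and 9.13% fell on VNP2. The intermediate filament genes VIM, with mean normalized counts of 104536, 75919 and 88754 (log2 fold changes -0.46 and -0.24), and NES, with 69905, 57585 and 55510 (-0.28 and -0.33), were called lower on both. SOX1, a neural progenitor factor, and HES5, a Notch target, were higher on VN (0.28 and 0.62), and the SOX1 call was lost without Matrigel replicate 3 (adjusted p = 0.0785). The 6 summed to 3388 to 3470 TPM on Matrigel, 2863 to 2907 on VN and 3103 to 3136 on VNP2, and without VIM to 849.5 to 965.3 in all groups.

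Among all genes, 9.6% were called lower on VN and 9.13% on VNP2, and 5.66% and 7.44% were called higher. Endothelial markers summed to 11.2 to 12.02 TPM on Matrigel, 10.4 to 11.02 on VN and 10.3 to 10.4 on VNP2, most of it KDR. Without KDR the sums were 3.35 to 4.08, 1.66 to 2.37 and 1.43 to 1.68. Of the 3 tested, CDH5 (-1.93 and -1.60) and TEK (-0.9965 and -1.36) were called lower on both substrates, at mean normalized counts of 45.4 and 327 on Matrigel, and the CDH5 calls were lost without Matrigel replicate 2 (adjusted p = 0.0717 and 0.121). Neural crest markers summed to 3.95 to 4.67 TPM on Matrigel, 4.78 to 5.97 on VN and 5.81 to 6.63 on VNP2, where TFAP2A (0.9991) was the 1 of 4 tested that rose, except without Matrigel replicate 2 (adjusted p = 0.0754).

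Mesenchymal markers moved with the substrates as well. All 13 were tested, and 2 rose and 3 fell on VN and 4 rose and 3 fell on VNP2, where 2 rose without Matrigel replicate 2 and 1 without Matrigel replicate 3. Of all genes, 5.66% rose and 9.6% fell on VN, and 7.44% rose and 9.13% fell on VNP2. The summed level of the mesenchymal markers was 779 to 796 TPM on Matrigel, 463 to 520 on VN and 445 to 466 on VNP2. TAGLN, an actin-binding protein of smooth muscle, had mean normalized counts of 14125, 3253 and 2884 (log2 fold changes -2.12 and -2.29). ACTA2 (-0.97 and -0.83) and PRRX1 (-0.40 and -0.58) also fell on both, the VN call of PRRX1 being lost without either Matrigel library. The 2 that rose on VN were DCN and LUM, the proteoglycan genes given above, which were also among the 4 that rose on VNP2. Without TAGLN the sum was 285 to 295 TPM on Matrigel, 341 to 395 on VN and 335 to 362 on VNP2. That sum includes DCN and LUM as well as markers that fell, so it does not describe the list as a whole. The part of these and the other markers in the changes of the fibrillar collagen genes was not tested.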

How the data were processed

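OPCs from H9 on Matrigel, VN and VNP2 were profiled as stranded, paired-end RNA-seq libraries. The authors trimmed reads with Trim Galore and ran Salmon on the GENCODE v32 transcripts (GRCh38.p13). The deposited files hold Salmon's estimated counts, not whole and not normalized, and its TPM per transcript. The authors also deposited a signal table of counts per gene normalized with tximport and DESeq2 (1.27.12 in the submitters' processing notes).

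Transcripts were matched by identifier to GENCODE v29 (205225 of 226608, holding 98.8 to 98.9% of the counts). The older release lacks some transcripts, but each fibrillar collagen gene had the same mean as in the authors' table to within rounding. The counts of a gene's transcripts were added up, rounded to integers and fitted with length offsets, TMM and filterByExpr (minimum count 10, minimum total 15) in edgeR 4.0.16 (R 4.3.3, limma 3.58.1), in 1 quasi-likelihood model of all 8 libraries without a block. Tests were two-sided with Benjamini-Hochberg adjustment over the 18201 genes of each comparison and a threshold of 0.05. SEs were derived from the fold change and the F statistic. The 95% intervals use the SE and the t distribution at the 10.3 degrees of freedom of the test, and are not adjusted. Ratios and the exon 2 share used exact permutation tests (Python 3.11.15). The scripts were tested on simulated data.

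The fibrillar collagen genes and the other gene lists were chosen with earlier results of these data known. Named genes are those 9, COL11A2, COL24A1, up to 4 markers per list, per pair up to 3 called genes of each other list with the largest change and a mean of at least 50, list genes with a direct role in making or binding a member, and for each member the 3 most similar genes. Counting error is about 10% at 100 counts, so COL5A3, COL11A2 and COL24A1 are the least precise. Alternatives were a replicate block, leaving out each library, fitting a pair's libraries alone, DESeq2 1.42.0, RLE scaling, fits without length offsets or without a filter, a minimum of 50 counts per library, and limma on the authors' table after adding 1 and taking log2. For the other lists these were added after the data were seen, as were levels and ratios of protein-coding transcripts alone. Protein sequences were not used here.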

Additional observations from a re-analysis of the deposited data

How the results depend on the processing

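No called fold change of a fibrillar collagen gene changed direction under any alternative. Of those not called, COL1A2 between VNP2 and VN (0.0435) and COL27A1 between VNP2 and Matrigel (-0.0042) changed sign without length offsets, and COL2A1 between VNP2 and Matrigel, near 0 throughout, did so without length offsets, under the replicate block and without VNP2 replicate 2. Of 429 refits of the 27 fold changes, 410 kept the call, 15 gained it and 4 lost it. The gains were of COL2A1, COL3A1 and COL27A1, and the losses were of COL3A1 between VNP2 and VN. The number of fibrillar collagen genes called ranged from 7 to 9 across the substrates, 6 to 8 between VN and Matrigel, 6 to 7 between VNP2 and Matrigel and 4 to 6 between VNP2 and VN.

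Over all genes, leaving out 1 library moved the calls from 3518 to between 1879 and 4975 across the substrates, from 2778 to between 1188 and 3899 for VN and Matrigel, from 3016 to between 1609 and 3608 for VNP2 and Matrigel, and from 928 to between 547 (without VNP2 replicate 1) and 1996 (without VN replicate 1) for VNP2 and VN. The fewest calls against Matrigel came without a Matrigel library, which leaves a lone sample assumed to vary like the others.

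Same-numbered libraries were not treated as pairs. The correlations of their deviations ran from -0.133 to 0.161, and 2 of the 8 libraries deviated most like one of their own number. Deviations within groups of 2 or 3 libraries cannot decide whether same-numbered libraries belong together, and the labels do not say. The replicate block gave 3992 calls across the substrates, 3389 for VN and Matrigel, 3170 for VNP2 and Matrigel and 1146 for VNP2 and VN. The 3 chain ratios kept their call under every alternative run, and the exon 2 share passed in none, with 12.02% to 58.1% of its variation between substrates when 1 library was left out. Of 111 called fold changes of other list genes, 48 lost the call in at least 1 refit and none reversed.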
